A study of Mus musculus with 26 samples.

Results

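Open chromatin was followed at 8 genes of the Nodal and Activin pathway, Nodal, Tdgf1, Acvr2b, Lefty1, Lefty2, Cer1, Fst and Smad7, in mouse pluripotent stem cells. The measurement was ATAC-seq, in which the Tn5 transposase cuts accessible DNA, and the data were 26 lists of peaks, 1 per library. A peak was taken when it overlapped the GRCm38 span of a member gene or the 50 kb on either side of it, a stretch called the gene's window here. That rule took 550 of the 451563 deposited peaks, and these merged into 67 regions. The lists of the first set held 61 of the regions, and the other 6 were seen only in a second set named Rd2.

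The first set had 3 libraries in each of 6 groups. ES cells grew in 2iL medium (passage 16) and stand for the naive state. Formative stem (FS) cells grew in A3XR medium and came as FS1 (passage 21) and FS2 (passage 29). Epiblast stem cells (EpiSCs), the primed state, grew in AF medium (EpiSC_AF, passage 22) or in AFX medium (EpiSC_AFX1, passage 14, and EpiSC_AFX2, passage 16). FS1 and FS2 are joined as FS below, and the AFX groups as EpiSC_AFX. The Rd2 set, titled WT, had 2 libraries of ES cells in 2iL (Rd2_ES, passage 33), with the source name Rd2GFP. It had 4 libraries of epiblast-like cells induced from ES cells for 2 days in AF with KSR (Rd2_EpiLC), sorted as the GFP-low fraction. It also had 2 libraries of EpiSCs in AFX (Rd2_AFX, passage 16). The labels give no genotype for the first set, do not say how the numbered lines were derived, and do not say whether the libraries of a group came from separate cultures, so the p-values below measure only the spread between libraries.

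Nodal is a secreted ligand of the TGF-beta family that keeps epiblast cells pluripotent and later patterns the embryo. It binds type II receptors such as Acvr2b together with type I receptors and needs the coreceptor Tdgf1 (Cripto), and the signal passes through Smad2, Smad3 and Foxh1 to target genes. Several targets are inhibitors that close a feedback loop: Lefty1, Lefty2 and Cer1 are secreted antagonists of Nodal, Fst binds activin, and Smad7 blocks the receptors from inside the cell. Activin uses the same receptors, and the Nodal gene is known to carry several enhancers upstream of it and in its first intron.

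Promoter sequence is given first for the members whose gene start could be set beside the peaks. RefSeq windows of GRCm38.p6, running from 250 bases before to 50 bases after the gene start, were matched for 4 of the 8 members. They are shown because peaks covered them very unevenly, from the window of Acvr2b, held by nearly every library, to that of Cer1, held in a single group. The windows lie at chr10:61417722-61418021 for Nodal, chr4:82885102-82885401 for Cer1, chr9:110946109-110946408 for Tdgf1 and chr9:119401928-119402227 for Acvr2b. Nodal and Acvr2b are on the plus strand, Cer1 and Tdgf1 on the minus strand, and each sequence reads 5′ to 3′ along its gene, with matches to a searched motif in capitals.
Nodal: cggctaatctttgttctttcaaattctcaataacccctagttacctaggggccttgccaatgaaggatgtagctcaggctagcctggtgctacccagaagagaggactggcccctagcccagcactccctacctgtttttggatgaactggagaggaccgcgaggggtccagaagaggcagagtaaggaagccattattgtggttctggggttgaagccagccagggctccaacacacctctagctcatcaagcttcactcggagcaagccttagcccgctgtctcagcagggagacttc
Cer1: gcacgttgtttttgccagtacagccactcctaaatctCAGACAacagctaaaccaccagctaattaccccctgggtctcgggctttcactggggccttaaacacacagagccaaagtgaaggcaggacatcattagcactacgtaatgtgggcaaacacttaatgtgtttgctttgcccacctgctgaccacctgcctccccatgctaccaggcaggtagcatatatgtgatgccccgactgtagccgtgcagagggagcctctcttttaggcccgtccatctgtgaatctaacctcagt
Tdgf1: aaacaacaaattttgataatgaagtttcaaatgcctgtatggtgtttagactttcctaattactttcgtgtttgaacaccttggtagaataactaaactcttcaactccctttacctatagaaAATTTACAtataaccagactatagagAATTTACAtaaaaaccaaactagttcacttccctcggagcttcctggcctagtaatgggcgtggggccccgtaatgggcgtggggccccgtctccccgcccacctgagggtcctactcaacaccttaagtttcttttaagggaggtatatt
Acvr2b: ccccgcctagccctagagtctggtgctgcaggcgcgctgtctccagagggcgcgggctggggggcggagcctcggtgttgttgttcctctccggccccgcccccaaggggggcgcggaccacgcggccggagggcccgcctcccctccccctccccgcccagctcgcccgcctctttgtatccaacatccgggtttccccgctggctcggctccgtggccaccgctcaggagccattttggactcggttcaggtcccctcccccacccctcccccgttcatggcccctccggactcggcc
The motifs were searched as exact letters on both strands. They were the Foxh1 site AATCCACA, its shorter core AATNNACA (which includes the former), the Smad site CAGACA, the octamer ATGCAAAT, an Otx or Gsc type site TAATCC and a Tcf or Lef type site CTTTGAT. Cer1 held 1 CAGACA at base −213 from the gene start. Tdgf1 held 2 copies of AATTTACA, a match to the core AATNNACA, at bases −127 and −101. Nodal and Acvr2b held none of the 6 in these windows. Among 32851 promoter windows of the same length, 21% held CAGACA, 12.2% held AATNNACA, 0.855% AATCCACA, 1.74% ATGCAAAT, 7.06% TAATCC and 3.73% CTTTGAT. The GC content was 73.3% for Acvr2b, 54% for Nodal, 51.7% for Cer1 and 41.7% for Tdgf1, against a median of 52.7% over all windows.

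Of the 67 merged regions, 7 touched a member's gene end or came within 1 kb of it, 12 did so for another protein-coding gene, and 48 were distal, farther than 1 kb from both. Lefty2 was the only member with no region at an end of its own. In the first set, 31.1% of the 61 regions lay at a gene end, against 21.4% of all 67172 regions of that set. The median width was 493 bp, against 363 bp. A single library held 29.5% of the member regions, against 39.7% of all regions, and 15 or more libraries held 13.1%, against 11.9%. The 2 regions found in all 18 libraries were the start of Acvr2b and a region at the end of Sde2, 41.8 kb from Lefty2.

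List length varied several-fold and sets how many weak peaks a list can hold. The 3 ES lists were the shortest of the first set, with 8044 to 10961 peaks, against 11796 to 14147 in FS2, 23883 to 31263 in FS1, 15505 to 24824 in EpiSC_AF and 17701 to 29575 in EpiSC_AFX. Presence was therefore compared at equal list length, using the 8044 peaks of each list with the highest −log10 p, and on the lists as deposited. Read depth is unknown, because the lists give no counts. Marker genes, read as a peak within 1 kb of either gene end at equal list length, followed the labels in part. Zfp42 and Tbx3, naive markers, had one in 3 of 3 ES libraries and in none of the others, while Dnmt3b and Tcf15, formative or primed markers, had one in 0 of 3 ES, 3 of 6 FS, 3 of 3 EpiSC_AF and 6 of 6 EpiSC_AFX libraries. Pou3f1 had one in 1, 5, 3 and 6 of them, Fgf5 in 0, 1, 2 and 1, and Otx2 in none. Klf4, a naive marker, did not follow its label, with 2 of 3 ES, 2 of 6 FS, 2 of 3 EpiSC_AF and 4 of 6 EpiSC_AFX libraries. Tfcp2l1 went against its naive label, with 0 of 3 ES and 6 of 6 EpiSC_AFX libraries, and Esrrb and Nr5a2 had none in any library at equal length. On the lists as deposited Tbx3 was not particular to ES. It had a gene-end peak in 3 of 3 ES, 4 of 6 FS, 3 of 3 EpiSC_AF and 6 of 6 EpiSC_AFX lists, and Zfp42 in 3, 0, 1 and 0. Of 8 genes of later lineages, each library had a gene-end peak at no more than 1 at equal length. In the lists as deposited it was 0 to 1 in ES, 0 to 5 in FS, 4 to 5 in EpiSC_AF and 3 to 6 in EpiSC_AFX, and its part in the results on those lists was not tested.

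**Figure D1:**
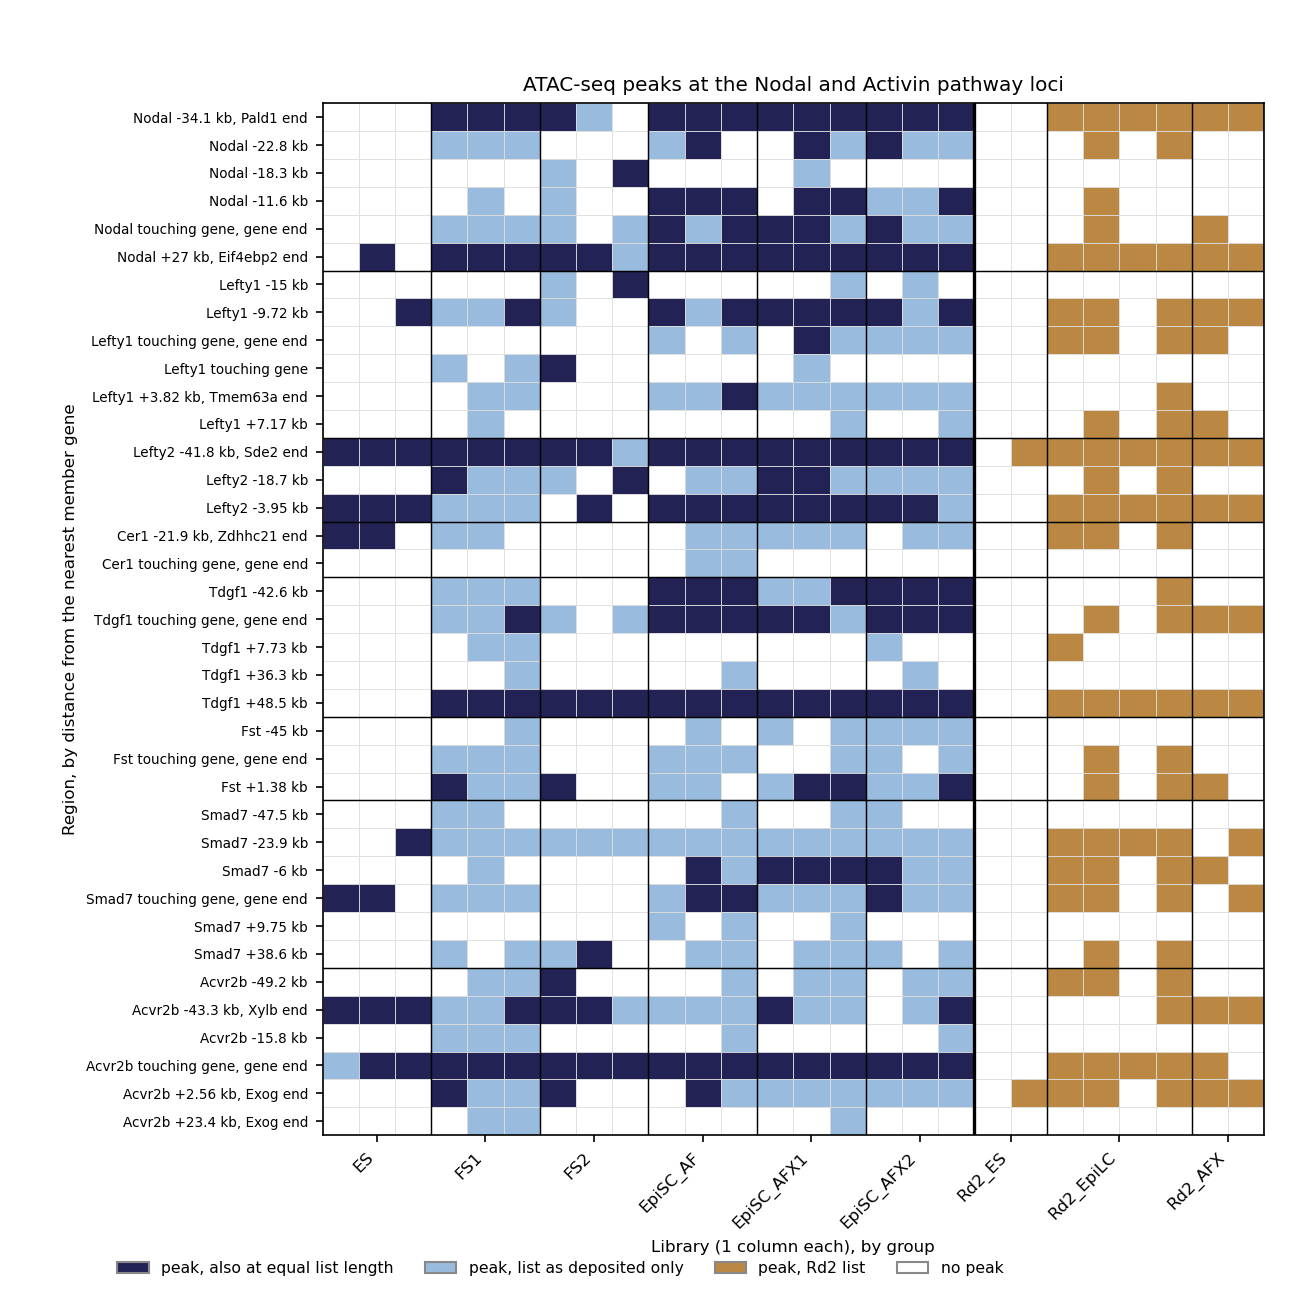
Rows are regions of the member windows, those described here that at least 3 first-set libraries held or that lie at a member gene end, by distance from the nearest member gene in the direction of the genome coordinates, and columns are the 26 libraries. A row is marked as a gene end where the merged region comes within 1 kb of it. Dark tiles are peaks kept at equal list length, light tiles peaks of the deposited list only, brown tiles peaks of the Rd2 lists. The row of Tdgf1 at +48.5 kb is dark in all 15 FS and EpiSC libraries and empty in the 3 ES libraries.

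Nodal, the ligand, spans chr10:61417972-61425338, and its window held 9 regions. At equal list length the 3 ES libraries had 0, 1 and 0 peaks in the window. The 6 FS libraries had 1 to 2 with a median of 2, the EpiSC_AF libraries had 4 each, and the EpiSC_AFX libraries had 2 to 6 with a median of 3. ES lay below both EpiSC groups with no overlap and met FS at 1 peak, and FS lay below EpiSC_AF with no overlap but met EpiSC_AFX at 2. ES averaged 0.333 ± 0.577 peaks (SD, n = 3) and FS averaged 1.67 ± 0.516 (SD, n = 6). The averages were 4 ± 0 (SD, n = 3) for EpiSC_AF and 3.5 ± 1.38 (SD, n = 6) for EpiSC_AFX. The mean over all protein-coding genes, counted the same way, was 0.85 to 0.887 in the ES libraries and 1.05 to 1.12 in the others.

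The start of Nodal lay in a region of 1617 bp, chr10:61417850-61419466. In the deposited lists it was held by 0 of 3 ES, 3 of 3 FS1, 2 of 3 FS2, 3 of 3 EpiSC_AF and 6 of 6 EpiSC_AFX libraries. All 6 EpiSC_AFX libraries and 1 of the EpiSC_AF libraries had 2 separate peaks there, while each FS library that held the region had 1. The FS peaks did not share a place: those of FS1 began at bases 61417850, 61418118 and 61418119, at the gene start, and those of FS2 at bases 61419138 and 61419285, inside the gene. The peaks were of middling strength. Their percentile, the percent of the same list that ranked below them by −log10 p, was 5.75 to 41.7 in FS, 44.9 to 79.8 in EpiSC_AF and 54 to 77.1 in EpiSC_AFX. At equal list length the region stayed in 0 of 6 FS, 2 of 3 EpiSC_AF and 3 of 6 EpiSC_AFX libraries. The 300-base promoter window printed above was touched in 1 of 6 FS and 2 of 6 EpiSC_AFX deposited lists and in none of ES or EpiSC_AF. The EpiSC_AF peaks began at bases 61418050 to 61418111, just past that window.

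A distal region 11.6 kb before the start of Nodal, chr10:61405983-61406396, was held at equal list length by 0 of 3 ES, 0 of 6 FS, 3 of 3 EpiSC_AF and 3 of 6 EpiSC_AFX libraries. The EpiSC_AF peaks had fold enrichments, the authors' ratio for each peak, of 4.92, 5.55 and 5.72 and percentiles of 55.7, 70.5 and 77.7. In the deposited lists it was also in 2 of 6 FS libraries, at percentiles of 28.7 and 46.3, and in 5 of 6 EpiSC_AFX libraries. FS and EpiSC_AF were apart at equal list length and overlapped on the lists as deposited. Whether this region or the start region matches one of the known Nodal enhancers was not tested. A second distal region, 22.8 kb before the gene at chr10:61394800-61395174, was in 3 of 3 FS1, 0 of 3 FS2, 2 of 3 EpiSC_AF and 5 of 6 EpiSC_AFX deposited lists, and at equal length in 3 libraries in all, none of them FS or ES. Another, 18.3 kb before the gene, was in 2 FS2 lists and 1 EpiSC_AFX list.

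The strongest peaks of the Nodal window lay at the ends of its neighbours. The region at the end of Pald1, 34.1 kb before Nodal at chr10:61383254-61383885, was held at equal list length by 0 of 3 ES, 4 of 6 FS, 3 of 3 EpiSC_AF and 6 of 6 EpiSC_AFX libraries. Its percentile was 61.6 to 95.2 in those 4 FS lists, 91.1 to 95.1 in EpiSC_AF and 83.8 to 98.6 in EpiSC_AFX. FS2 was mixed, since FS2 replicate 2 held a weak peak at percentile 9.4 and FS2 replicate 3 none. On the other side, the region of the Eif4ebp2 end, 27 kb beyond Nodal at chr10:61452297-61453177, was held at equal length by 1 of 3 ES, 5 of 6 FS, 3 of 3 EpiSC_AF and 6 of 6 EpiSC_AFX libraries. The ES peak, in replicate 2, had percentile 41.8, against 92.8 to 94.1 in EpiSC_AF. Which gene a region near several genes acts on was not tested.

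Tdgf1, the coreceptor, spans chr9:110939608-110946158 on the minus strand, so higher coordinates lie upstream of it. Its window was empty in ES. With lists of equal length the ES libraries had 0 peaks each, the FS libraries 1 to 2 with a median of 1, the EpiSC_AF libraries 3 each, and the EpiSC_AFX libraries 2 to 3 with a median of 2.5. ES overlapped no other cell type, and FS overlapped EpiSC_AFX at 2 peaks but not EpiSC_AF. The deposited ES lists also held no peak in this window. Neither did the Rd2_ES lists, but with only 471 and 2576 peaks these say little about a single window.

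The region that parted ES from every other group lay 48.5 kb upstream of Tdgf1, at chr9:110994671-110995158. It was distal, 4.41 kb from the nearest end of Rtp3 and inside no gene. All of the 6 FS, 3 EpiSC_AF and 6 EpiSC_AFX libraries held it at equal list length, and no ES library held it in any list. Fold enrichment was 5.23, 5.78 and 6.03 in FS1 and 4.06, 4.33 and 4.36 in FS2. It was 4.96, 5 and 5.99 in EpiSC_AF, and 4.93 to 7.7 in EpiSC_AFX. Percentiles ran from 53.2 to 83.4 in FS, 61.8 to 82.6 in EpiSC_AF and 71.4 to 92.1 in EpiSC_AFX. The peak was thus above the middle of each of these deposited lists. Within the equal-length lists its mean percentile was 41. In the Rd2 set all 4 Rd2_EpiLC and both Rd2_AFX lists held it, at percentiles from 13.3 to 93.2. Neither of the very short Rd2_ES lists did. The region lies near the edge of the 50 kb window, so a window of 20 kb leaves it out.

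A merged region next to the Tdgf1 start, chr9:110946083-110948281, was held at equal list length by 0 of 3 ES, 1 of 6 FS, 3 of 3 EpiSC_AF and 5 of 6 EpiSC_AFX libraries. The FS library was FS1 replicate 3, at percentile 79.7. The EpiSC_AF peaks had percentiles of 69.9, 76 and 86.9, and the 5 EpiSC_AFX libraries 56.8 to 84.2. FS held the region in 5 of 6 deposited lists, but at percentiles of 1.26 to 17.4 in 3 of them. Most of these peaks lay more than 1 kb upstream of the gene start, and within 1 kb of an end of Tdgf1 a peak was found only in 2 FS, 2 EpiSC_AFX and 1 Rd2_EpiLC deposited lists. The promoter window, with its 2 AATTTACA matches, was touched only in 2 of 6 EpiSC_AFX deposited lists. On the far side of the gene, a region 42.6 kb away inside Als2cl, chr9:110896458-110896969, was held at equal length by 0 of 3 ES, 0 of 6 FS, 3 of 3 EpiSC_AF and 4 of 6 EpiSC_AFX libraries. In the deposited lists FS1 held it in 3 of 3 libraries, at percentiles of 13.6, 30.4 and 66.9, and FS2 in none. The remaining distal regions, 7.73 and 36.3 kb from Tdgf1, were held by 3 first-set libraries each.

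**Figure D2:**
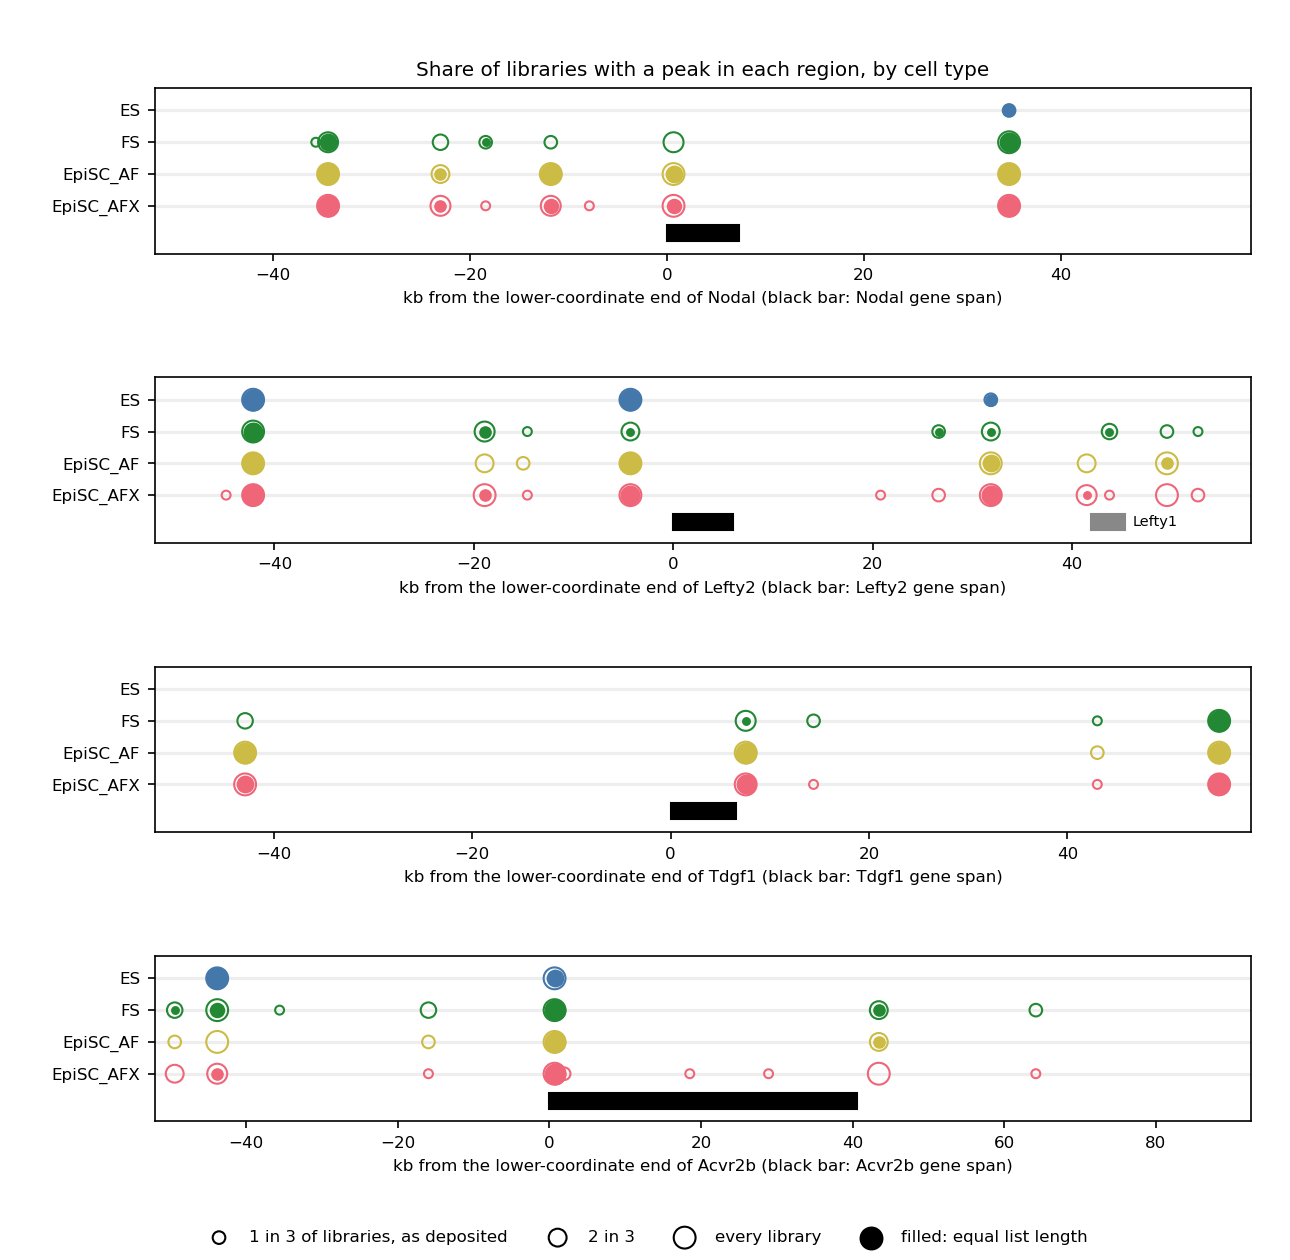
Circles show, for each cell type, the share of its libraries with a peak in a region described here of the Nodal, Lefty2, Tdgf1 and Acvr2b windows, open for lists as deposited and filled at equal list length, against distance in kb from the lower-coordinate end of the gene. ES has no circle in the Tdgf1 window and in the Nodal window only one at the end of Eif4ebp2, held by 1 of 3 libraries.

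Acvr2b, the type II receptor, spans chr9:119401583-119442148, 8.46 Mb from Tdgf1. Its start was open in every group of the first set. The region chr9:119401799-119402780 was held in all 18 deposited lists and, at equal list length, in 2 of 3 ES, 6 of 6 FS, 3 of 3 EpiSC_AF and 6 of 6 EpiSC_AFX libraries. Percentiles were 11.2, 68.6 and 74.1 in ES, 44.8 to 94.6 in FS, 86.8, 92.5 and 95.4 in EpiSC_AF and 76.1 to 96.7 in EpiSC_AFX. The ES percentiles lay below all EpiSC percentiles and overlapped with FS, where FS2 replicate 1 had the lowest percentile. The lists differ in length, so these percentiles do not order the peaks by rank across cell types. A peak overlapped the promoter window in all 18 lists, and in all 4 Rd2_EpiLC and 1 of 2 Rd2_AFX lists.

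Other regions of the Acvr2b window lay at ends of neighbours. The region at the end of Xylb, 43.3 kb before Acvr2b at chr9:119357362-119358258, was held at equal list length by 3 of 3 ES, 3 of 6 FS, 0 of 3 EpiSC_AF and 2 of 6 EpiSC_AFX libraries. It was the only member region held by every ES library and by no library of a compared cell type at equal list length. The deposited EpiSC_AF lists held it in 3 of 3 libraries at percentiles of 23.2, 35.1 and 54.1. Those overlap the ES percentiles of 27.9, 50.4 and 55.6, and the types were not separated there on the lists as deposited. The EpiSC_AF lists are longer, and none of these EpiSC_AF peaks was kept at equal list length, so the percentiles do not compare ranks. Another region, at the end of Exog 2.56 kb beyond Acvr2b, was in 0 of 3 ES, 4 of 6 FS, 2 of 3 EpiSC_AF and 6 of 6 EpiSC_AFX deposited lists, and at equal length in 3 libraries. The other regions there were weaker: 49.2 kb before the gene in 8 first-set libraries, 15.8 kb before it in 5, and at an end of Exog, 23.4 kb beyond it, in 3. Window counts at equal length were 1, 2 and 2 in ES, 1 to 4 in FS, 1, 2 and 1 in EpiSC_AF and 1 to 2 in EpiSC_AFX, and all cell types overlapped.

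Lefty1 and Lefty2, secreted Nodal antagonists, lie 35.9 kb apart at chr1:180935022-180938401 and chr1:180893108-180899107, so their windows share most regions. They are close copies, and how reads that match both genes were placed is not given in the sources used here, so peaks inside either gene are uncertain. The table used here gives no strand for Lefty1, Lefty2, Fst and Smad7, so their gene ends are not called starts, and sides are given by genome coordinate. In the equal-length lists the Lefty2 window had 3 peaks in each ES library, 2 to 4 in FS with a median of 4, 4, 5 and 6 in EpiSC_AF and 3 to 7 in EpiSC_AFX with a median of 4.5. The Lefty1 window had 2 in each ES library, 1 to 3 in FS with a median of 3, 3, 4 and 5 in EpiSC_AF and 2 to 5 in EpiSC_AFX with a median of 3. ES lay below EpiSC_AF with no overlap in both windows and overlapped with FS and EpiSC_AFX.

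No list of either set held a peak within 1 kb of an end of Lefty2. One of the nearest regions, 3.95 kb away on the lower-coordinate side at chr1:180888490-180889154, was held by ES and EpiSC libraries and by few FS libraries. At equal length it was in 3 of 3 ES libraries, at percentiles of 56.9, 79.3 and 88, in 3 of 3 EpiSC_AF and 5 of 6 EpiSC_AFX libraries, and in 1 of 6 FS libraries. In the deposited lists 3 FS1 and 1 FS2 library held it, at percentiles of 30.1 to 47.2. ES and FS still overlapped through FS2 replicate 2. A distal region 18.7 kb away on the lower-coordinate side was in 0 of 3 ES, 5 of 6 FS, 2 of 3 EpiSC_AF and 6 of 6 EpiSC_AFX deposited lists.

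The Lefty1 gene-end region, chr1:180933743-180935438, was in 0 of 3 ES, 0 of 6 FS, 2 of 3 EpiSC_AF and 5 of 6 EpiSC_AFX deposited lists and in 1 library, EpiSC_AFX1 replicate 2, at equal length. The Rd2 lists differed from FS here, with 3 of 4 Rd2_EpiLC and 1 of 2 Rd2_AFX holding it. These counts are for the whole merged region. Within 1 kb of an end of Lefty1 a peak was found in 2 EpiSC_AF, 4 EpiSC_AFX, 2 Rd2_EpiLC and 1 Rd2_AFX deposited lists, and in none at equal length. A distal region between the genes, 9.72 kb from Lefty1 at chr1:180924647-180925301, was held at equal length by 1 of 3 ES, 1 of 6 FS, 2 of 3 EpiSC_AF and 5 of 6 EpiSC_AFX libraries, and in the deposited lists by 1, 4, 3 and 6. A region at the end of Tmem63a, 3.82 kb from Lefty1, was in 0 of 3 ES, 2 of 6 FS, 3 of 3 EpiSC_AF and 6 of 6 EpiSC_AFX deposited lists, mostly as weak peaks, since only 1 library kept it at equal length. The other regions nearest to Lefty1 with 3 or more libraries lay 15 kb from it on the Lefty2 side, inside it, and 7.17 kb from it on the other side, in 3 to 4 libraries each.

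Cer1, another secreted antagonist, spans chr4:82881751-82885151 on the minus strand and was the member with the fewest peaks outside ES. Its window at equal length held 1, 1 and 0 peaks in ES and 0 in each FS, EpiSC_AF and EpiSC_AFX library. Both ES peaks lay at the end of Zdhhc21, 21.9 kb from Cer1, at percentiles of 42.6 and 65.4. In the deposited lists that region, chr4:82859383-82859876, was also in 2 of 6 FS, 2 of 3 EpiSC_AF and 5 of 6 EpiSC_AFX libraries, at percentiles of 9.75 to 41.8. The start of Cer1, chr4:82885063-82885371, was held only by EpiSC_AF replicates 2 and 3, at percentiles of 50 and 28.7, and both peaks lay over the promoter window printed above. The other 3 regions were in 1 library each.

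Fst, the activin binder, spans chr13:114452262-114458989, and its window held 3 regions, none of them in ES. The region over a gene end, chr13:114458378-114459545, was in 3 of 3 FS1, 0 of 3 FS2, 3 of 3 EpiSC_AF and 3 of 6 EpiSC_AFX deposited lists, at percentiles from 3.3 to 57.4, and in no list at equal length. The region 1.38 kb from that end, chr13:114460373-114460865, was stronger. It was in 0 of 3 ES, 4 of 6 FS, 2 of 3 EpiSC_AF and 6 of 6 EpiSC_AFX deposited lists, and at equal length in 0, 2, 0 and 3. The third region, 45 kb away, was in 7 deposited lists and in none at equal length.

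Smad7, the intracellular inhibitor, spans chr18:75367365-75395935. Its window at equal length held 2, 1 and 1 peaks in ES, 0 to 1 in FS with a median of 0, 0, 2 and 1 in EpiSC_AF and 0 to 2 in EpiSC_AFX. All cell types overlapped. The region at the lower-coordinate end of Smad7 was held at equal length by 2 of 3 ES, 0 of 6 FS, 2 of 3 EpiSC_AF and 1 of 6 EpiSC_AFX libraries, and in the deposited lists by 2, 3, 3 and 6. The 3 FS lists were those of FS1, at percentiles of 34.2, 35.4 and 36.5, below the ES percentiles of 67 and 84.7. A distal region 6 kb outside that end was in 0 of 3 ES, 1 of 6 FS, 2 of 3 EpiSC_AF and 6 of 6 EpiSC_AFX deposited lists and at equal length in 0, 0, 1 and 4. Another, 23.9 kb outside it, was in 16 of the 18 deposited lists but kept at equal length only in ES replicate 3. That ES peak was weak, at percentile 26 of a short list. In the longer lists the percentiles were 3.99 to 38.4 in FS, 17.3 to 64.9 in EpiSC_AF and 7.59 to 52.9 in EpiSC_AFX. Regions 38.6, 47.5 and 9.75 kb away were in 10, 5 and 3 first-set libraries.

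**Figure D3:**
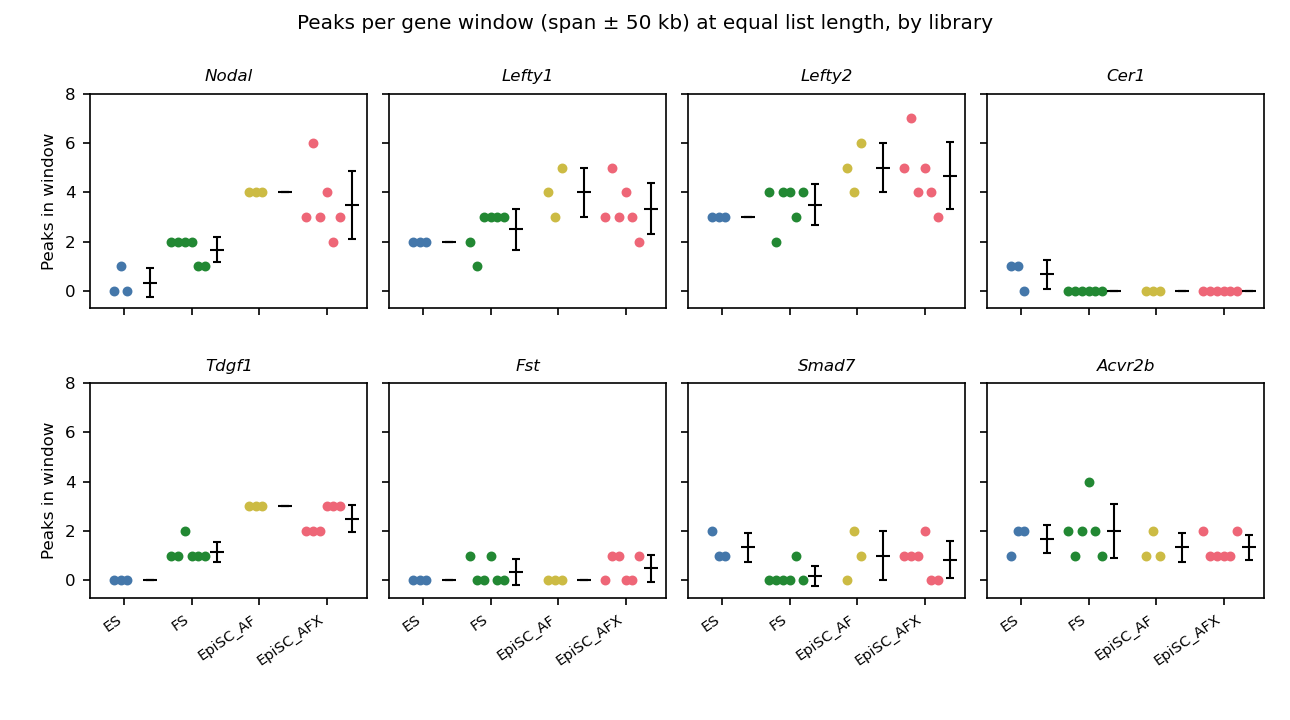
Points are the number of peaks of each library in a gene window at equal list length, by cell type, with the mean and SD at the right of each group. The Nodal and Tdgf1 windows have means of 0.333 and 0 in ES, 1.67 and 1.17 in FS, 4 and 3 in EpiSC_AF, and 3.5 and 2.5 in EpiSC_AFX. In FS the peaks of the Nodal window lie mainly at the ends of Pald1 and Eif4ebp2. Those of the Tdgf1 window lie mainly in the region at +48.5 kb. The ranges of Smad7 and Acvr2b overlap in all cell types.

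The comparisons asked which regions separated the cell types, meaning a peak in every library of one type and in none of the other. For ES against FS at equal list length, 1 of 24 member regions was separated, against 3.81% of all 22046 regions. It was the region 48.5 kb upstream of Tdgf1, held by FS, and of all regions 1.69% were separated in that direction. The member share, 4.17%, was near the background. The window counts of ES and FS did not overlap for 1 of 8 members, Tdgf1, against 7.33% of all genes and 5.21% with FS higher. Nothing passed a test over all features. Fisher's exact test of presence, with Benjamini-Hochberg adjustment over all regions, called 0 regions, with an adjusted p of 0.312 for the Tdgf1 region. At an unadjusted p under 0.05 it gave 3 of 24 member regions, among them that one and the Lefty2 region at 3.95 kb (held by ES), against 6.64% of all regions. The exact permutation test of window counts called 0 of 17769 genes, of which 11.7% had an unadjusted p under 0.05. So did 3 members by this exact permutation test, Tdgf1 (p = 0.0119, adjusted p = 0.19) and Nodal and Smad7 (each p = 0.0357, adjusted p = 0.356). Smad7 had the higher mean in ES, 1.33 against 0.167 peaks. The median difference of the 8 members, ES minus FS, was -0.417 peaks, against -0.167 for all genes. With 3 against 6 libraries no p can go below 0.0119. On the lists as deposited 2 of 43 member regions were separated, that one among them, against 3.4% of all regions. When a library had to cover at least 50% of a region, the 1 separated region was held by ES, so the Tdgf1 region no longer counted. At equal length the count was 3 without ES replicate 3, against 6.3% of all regions, 2 without FS1 replicate 2, against 4.2%, and 2 without FS2 replicate 2, against 4.72%.

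For ES against EpiSC_AFX, 2 of 24 member regions were separated at equal list length, against 5.31% of all regions, and both were held by EpiSC_AFX, a direction with 2.59% of all regions. They were the region 48.5 kb upstream of Tdgf1 and the region at the end of Pald1 near Nodal. Window counts did not overlap for 2 of 8 members, Nodal and Tdgf1, against 9.81% of all genes and 7.06% with EpiSC_AFX higher. For both, the exact permutation p was 0.0119, the smallest possible, and the adjusted p was 0.138, so neither passed. Fisher's exact test called 0 regions, with an adjusted p of 0.224 for both regions. At an unadjusted p under 0.05 it gave 3 member regions, these and the region next to the Tdgf1 start, against 8.11% of all regions, and the permutation test gave 2 members against 14.5% of genes. The median difference of the members, ES minus EpiSC_AFX, was -0.917 peaks, against -0.167 for all genes. On the lists as deposited the count rose to 11 of 56, against 8.67% of all regions, with all 11 held by EpiSC_AFX, a direction with 8.18%. Those 11 included both peaks of the Nodal start region, the region next to the Tdgf1 start, the Smad7 region at 6 kb, the Fst region at 1.38 kb and the Lefty2 region at 18.7 kb. The window test then called 6 of 8 members, all but Cer1 and Acvr2b, each with an adjusted p of 0.0324, against 36.7% of all genes called. Acvr2b, with means of 2 against 4.83 peaks, had an adjusted p of 0.075. That setting compares the shortest lists with some of the longest, and the part of list length in it was not tested beyond the counts at equal length, where no member was called.

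For ES against EpiSC_AF, 7 of 22 member regions were separated at equal list length, against 8.9% of all 18347 regions. EpiSC_AF held 6 of the 7, a direction with 5.59% of all regions, and ES held the Xylb region near Acvr2b. Among the 6 were 3 regions of the Tdgf1 window (42.6 kb away, next to the start and 48.5 kb upstream) and the Nodal regions at 34.1 and 11.6 kb. Window counts did not overlap for 4 of 7 members, Nodal, Tdgf1, Lefty1 and Lefty2, against 14.8% of all genes and 10.9% with EpiSC_AF higher. With 3 against 3 libraries an exact permutation test cannot reach the threshold, and none was run. On the lists as deposited 9 of 40 were separated, against 13.3% of all regions, and EpiSC_AF held all 9, a direction with 12.4%.

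Of all regions, a smaller share was separated between FS and EpiSC than between ES and FS, where it was 3.81% at equal list length. The window counts of the members did not follow this. Their median difference was -0.417 peaks for ES against FS and was larger in size for FS against either EpiSC type, as given below. For FS against EpiSC_AFX, 0 of 28 member regions were separated, against 0.181% of all regions, and 0 of 56 on the lists as deposited, against 0.101%, and the window counts of all 7 members with a peak overlapped, against 0.235% of genes that did not, and window counts of EpiSC_AF and EpiSC_AFX overlapped for all 7 too, against 0.597%. Unadjusted permutation p-values were 0.00866 for Tdgf1, with means of 1.17 against 2.5 peaks, and 0.0108 for Nodal, with 1.67 against 3.5, and both had an adjusted p of 1. Of all genes 2.78% had an unadjusted p under 0.05, and by Fisher's exact test 0.831% of all regions and 0 member regions did. The median difference of the members was -0.833 peaks, against 0 for all genes. For FS against EpiSC_AF, 2 of 27 were separated, against 0.895% of all regions, both held by EpiSC_AF, a direction with 0.564%: the region 11.6 kb before Nodal and the region 42.6 kb from Tdgf1. Window counts did not overlap for 2 of 7 members, Nodal and Tdgf1, against 1.54% of genes and 0.836% with EpiSC_AF higher. Fisher's exact test gave both regions p = 0.0119 and an adjusted p of 1, the permutation test gave both genes p = 0.0119 and an adjusted p of 0.902, and neither test called any feature. At an unadjusted p under 0.05 Fisher's exact test gave 4 member regions, these and the regions 3.95 kb from Lefty2 and next to the Tdgf1 start, against 2.6% of all regions, and the permutation test gave 2 members against 3.25% of genes. The median difference of the members was -1.5 peaks, against 0 for all genes. On the lists as deposited 0 of 49 were separated, against 0.446% of all regions, since FS lists held both regions, at percentiles of 28.7 and 46.3 for the Nodal region and 13.6 to 66.9 for the Tdgf1 region. For EpiSC_AF against EpiSC_AFX, 0 of 23 regions were separated, against 0.398% of all regions, and 0 of 58 as deposited, against 0.377%, and no member had an unadjusted p under 0.05 by either test, against 1.3% of regions by Fisher's exact test and 1.73% of genes by the permutation test, neither of which called any feature. Each cell type enters 3 of these comparisons, so their results are not independent.

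Within FS, the lines were set side by side as well. In the lists as deposited 5 of 42 member regions were held by every FS1 library and by no FS2 library, against 7.38% of all regions separated between these lines and 7.31% in that direction. They were the region 22.8 kb before Nodal, the gene-end regions of Fst and Smad7, the region 42.6 kb from Tdgf1 and the region 15.8 kb before Acvr2b. FS1 lists held 23883 to 31263 peaks and FS2 lists 11796 to 14147. At equal list length 0 of 20 were separated, against 4.09% of all regions. Between EpiSC_AFX1 and EpiSC_AFX2 0 of 21 were separated at equal length, against 4.25%, and 0 of 55 as deposited, against 3.18%.

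**Figure D4:**
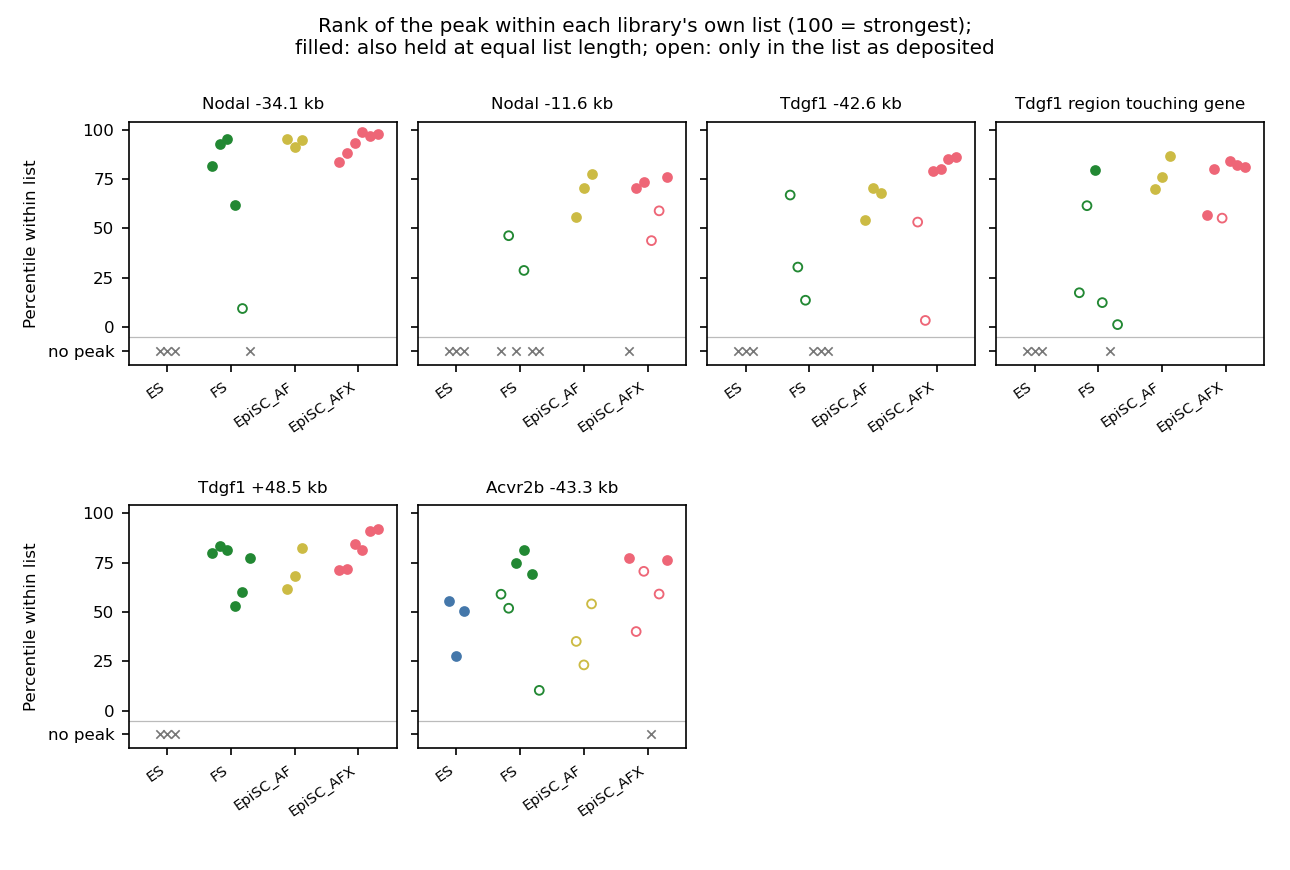
Each point is a first-set library's peak in a region named above that was separated at equal list length in any first-set comparison, placed by its percentile within that library's own list, with crosses for libraries without a peak. In the Tdgf1 region at +48.5 kb all 15 FS and EpiSC points lie above 50 and the 3 ES libraries are crosses. In the Acvr2b region at -43.3 kb the EpiSC_AF and ES percentiles overlap, but of these types only ES held it at equal list length.

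In the Rd2 set, the lists of epiblast-like cells after 2 days of induction held several of the regions that the first-set ES lists lacked, and others that those ES lists held. The deposited lists of Rd2_EpiLC held 15, 32, 8 and 30 peaks in the windows, those of Rd2_AFX 18 and 12, and those of Rd2_ES 0 and 2. The lists held 10563, 23608, 7469 and 26045 peaks for Rd2_EpiLC, 11252 and 10719 for Rd2_AFX, and 471 and 2576 for Rd2_ES, and the part of list length in the counts was not tested. All 4 Rd2_EpiLC and both Rd2_AFX lists held the Pald1 and Eif4ebp2 regions near Nodal, the region 48.5 kb upstream of Tdgf1, and the region 3.95 kb before Lefty2. Of these, the Pald1 and Tdgf1 regions were in 0 of 3 first-set ES lists, the Eif4ebp2 region in 1 and the Lefty2 region in 3. The merged region at the Nodal start was in 1 of 4 Rd2_EpiLC and 1 of 2 Rd2_AFX lists, and the region 11.6 kb before the gene in 1 and 0. No Rd2 list held a peak within 1 kb of an end of Nodal. The region next to the Tdgf1 start was in 2 of 4 and 2 of 2, and the Smad7 gene-end region in 3 of 4 and 1 of 2. None of 39 member regions was separated between Rd2_EpiLC and Rd2_AFX, against 1.81% of all regions. At the equal length of 7469 peaks 3 of 20 were separated, all in the Acvr2b window, against 4.01%: Rd2_EpiLC held the Acvr2b start, a direction with 1.61% of all regions, and Rd2_AFX held the Xylb and Exog ends, a direction with 2.41%. The count on the lists as deposited was 2 without Rd2_EpiLC replicate 3, against 5.2% of all regions. It was 1 without Rd2_EpiLC replicate 4, against 2.81%, without Rd2_AFX replicate 1, against 5.79%, and without Rd2_AFX replicate 2, against 5.61%. The Rd2 lists have a shortest peak of 110 bp, against 150 bp in the first set, and the sets were not compared with a test.

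Among 32 other genes of the pathway, gene-end peaks at equal list length were found in 9 to 13 per library in ES, 8 to 13 in FS, 12 to 15 in EpiSC_AF and 11 to 15 in EpiSC_AFX. Of all protein-coding genes 20.6% to 21.3% had one in ES libraries, 22.6% to 25.9% in FS, 26% in EpiSC_AF and 24.9% to 26.1% in EpiSC_AFX. The type I receptors Acvr1b and Tgfbr1, the Nodal effector Foxh1 and the decoy receptor Bambi had one in every first-set library. The ligand genes Gdf3, Inhba and Tgfb2 had none in any first-set list. For ES against FS 0 of the 19 pathway genes with any gene-end peak were separated, against 2.76% of all genes with one. For ES against EpiSC_AFX 1 was, against 4.08%, or 3.09% in that direction: Pmepa1, a feedback inhibitor of Smad signalling, with 0 of 3 ES and 6 of 6 EpiSC_AFX libraries. FS had it in 5 of 6 libraries. For ES against EpiSC_AF 2 were, against 7.73%, or 6.17% in that direction: Pmepa1 and Inha, the inhibin alpha subunit, both held in 3 of 3 EpiSC_AF libraries. The effector genes Smad2, Smad3 and Smad4 were not separated: gene-end peaks of Smad2 were in 3 of 3 ES libraries and 4 of 6 FS libraries, those of Smad3 in 0 of 3 and 3 of 6. For Smad4 they were in 2 of 3 ES libraries and in 0 of 6 FS, 0 of 3 EpiSC_AF and 0 of 6 EpiSC_AFX libraries. No pathway gene was separated for FS against EpiSC_AFX (0.0305% of all genes), FS against EpiSC_AF (0.649%) or EpiSC_AF against EpiSC_AFX (0.257%). In all of these comparisons 0 of the 2 or 3 members with a peak at their own gene end were separated.

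Patterns of presence over the 18 libraries at equal list length were also matched exactly. The region at the end of Pald1 near Nodal, held by 13 libraries, had the same pattern as 14 of 25068 regions, itself included. The other 3 with the highest mean percentile were 3.61 kb from Micu2, at an end of Ppp1ca and at an end of Kazn. The region 48.5 kb upstream of Tdgf1 shared its pattern, all FS and EpiSC libraries and no ES library, with 165 regions, and it was number 161 of these by mean percentile. The 3 highest lay at ends of Scn8a and Nfic and 19.7 kb from Sipa1l2. At the edge of the windows, the outermost first-set regions inside were 48.7 kb from Cer1, 49.2 kb from Acvr2b and 49.5 kb from Lefty1, in 1, 8 and 1 first-set libraries. The nearest outside were 50.2 kb from Nodal, in all 18 libraries, 51.1 kb from Tdgf1, in 5, and 53.8 kb from Smad7, in 1.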

How the data were processed

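ATAC-seq libraries were made from a fixed number of lysed cells with the Nextera Tn5 enzyme, per the labels' protocols. The submitters' processing notes name Trim Galore, Bowtie, Picard, MACS2 and the build mm10 (GRCm38), with no settings, and how reads that match several places were treated is not given in the sources used here. The authors deposited 1 peak list per library, giving each peak a score, its ratio to background (fold enrichment), and p and q values as −log10. These are the authors' own values, used to rank, filter or describe peaks within a list, and fold enrichments of different lists were not compared.

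The 8 members and all gene lists were chosen with earlier results of these data known. Peaks were merged into regions by an overlap of 1 bp, and gene spans came from RefSeq for 21900 protein-coding genes. Named were every member, its gene-end regions, its other regions held by at least 3 first-set libraries, and each separated region, except a few that enter the counts and are not reported here. Equal list length meant the 8044 peaks with the highest −log10 p. Presence was tested with a two-sided Fisher's exact test over all regions, and peaks per window with a two-sided exact permutation test over all genes, both with Benjamini-Hochberg adjustment and a threshold of 0.05. Alternatives were the deposited lists, ranking by fold, a −log10 q of at least 5, windows of 20 and 100 kb, 50% coverage of a region, leaving out each library, replicate blocks, and, chosen after seeing the data, leaving out each FS line. Replicates were distinct, since at most 0.0746% of peaks had the same coordinates in 2 libraries of a group. Python 3.11.15, numpy 2.4.6, pandas 2.3.3 and scipy 1.17.1 were used, and the code was tested on simulated data.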

Additional observations from a re-analysis of the deposited data

Results flagged for a closer look

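In 4 of 43 sets of libraries tested, an outlier rule flagged 1 library among those of its cell type. Chance is taken to flag about 1 in 20 sets, and this rate was not tested for small counts with ties, as here. At equal list length the Tdgf1 window held 2 peaks in FS1 replicate 3 and 1 in each of the other FS libraries. The Smad7 window held 1 peak in FS2 replicate 2 and 0 in each of the other FS libraries. The Acvr2b window held 4 peaks in FS2 replicate 1 and 1 to 2 in the others. In the lists as deposited the Cer1 window held 0 peaks in Rd2_EpiLC replicate 3, which had the shortest list of its group with 7469 peaks, and 1 in each of the other Rd2_EpiLC libraries. The part of list length in this was not tested.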

How the results depend on the processing

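The count of separated member regions depended on the settings, and the share of all regions separated, given as a percent, moved too. For ES against FS it was 1 (3.81%), and it was 2 on the lists as deposited (3.4%), 0 with a −log10 q of at least 5 (1.27%), 0 in windows of 20 kb, 2 without the FS1 line (6.85%) and 3 without the FS2 line (9.86%), both chosen after seeing the data, and 1 to 3 when each library was left out (4.17% to 6.62%). With 50% of a region covered it was again 1, but held by ES. For ES against EpiSC_AFX it was 2 (5.31%), and 11 as deposited (8.67%), 4 at that −log10 q (15.4%), 0 at 20 kb and 2 to 3 leaving out libraries (5.77% to 8.85%). For ES against EpiSC_AF it was 7 (8.9%), and 7 at that −log10 q (33.5%), 3 at 20 kb, 4 at 50% coverage (9.06%) and 7 to 8 leaving out libraries (11.4% to 14.3%). For FS against EpiSC_AF it was 2 (0.895%), and 0 as deposited (0.446%), 1 ranked by fold (0.768%), 1 at that −log10 q (0.545%), 1 at 20 kb and 2 to 3 leaving out libraries (1.17% to 1.68%). For FS against EpiSC_AFX and EpiSC_AF against EpiSC_AFX it stayed at 0 in every setting run. For Rd2_EpiLC against Rd2_AFX it was 0 (1.81%), and 3 at equal length (4.01%) and 0 to 2 leaving out libraries (2.6% to 5.79%). The window test of ES against EpiSC_AFX called 0 members, 6 on the lists as deposited and 3 at that −log10 q, where 32.7% of all genes were called. At that −log10 q the ES lists kept 761 to 1041 peaks and the EpiSC_AFX lists 4844 to 11673, so list lengths were not equal. The causes were not tested. Both tests called 0 members in every other setting, 0 to 0 when libraries were left out. With a replicate block they also called 0, with a smallest possible p of 0.037, or 0.00926 for FS against EpiSC_AFX. With so few libraries, a call after adjustment needs many features at or near the smallest p at once. The counts of 0 therefore say little about the members or about stability across settings. The numbers do not pair the libraries: deviations of same-numbered libraries had correlations of -0.02 to 0.0144. Peak lists give no depth, and an absent peak is a region that did not pass the authors' threshold, not closed chromatin.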

Other observations

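The 6 regions seen only in the Rd2 set were each held by 1 Rd2_EpiLC library. They lay inside Nodal, 41.7 kb from Lefty1, 49 kb from Tdgf1, and 39, 19.8 and 27.4 kb from Smad7.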
